A study of Mus musculus with 18 samples.

Results

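The enzymes that make pyrimidine nucleotides and turn them into DNA precursors were followed in medulloblastoma cells treated with mTOR inhibitors. Their 9 genes were chosen by name (Cad, Dhodh, Umps, Ctps, Tyms, Dut, Dtymk, Rrm1 and Rrm2). The rule uses no measured value, but the set was proposed with earlier results of these data known. They are 9 of the 15307 genes left after transcript rows with equal counts or of the same Ensembl gene had been merged. All 9 had 1 row of their own and passed the low-count filter in both assays, with counts of 348 to 7684 per library. The cells were GTML, a mouse medulloblastoma line in which all treatment groups carry a human MYCN transgene that the GLT1 promoter and a TRE element direct to neural progenitors of the hindbrain. The 3 groups received 50 nM Rapalink-1, 5 nM rapamycin or DMSO, the solvent, for 3 h, in neurobasal medium with B27, EGF and bFGF. Each group had 3 replicates, and each replicate gave a ribosome footprint library and a total RNA library, 18 libraries in all. Rapamycin inhibits mTORC1 allosterically and reduces the S6 kinase branch, whereas Rapalink-1, in which rapamycin is linked to an inhibitor of the ATP site, also blocks the branch through the eIF4E-binding proteins. The comparisons address which mRNAs change in translation under each drug. They cover 1 cell line, the drug doses differed, so that drug and dose cannot be told apart, and the labels do not say that replicates came from separate cultures, so p-values measure the spread between these samples.

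Pyrimidine rings are built from small precursors in the cytosol and, at 1 step, in mitochondria, to give UMP. Phosphorylation and amination then give CTP, ribonucleotide reductase removes the 2′ hydroxyl group of ribonucleotides, and the thymidylate branch makes dTTP from deoxyuridine nucleotides. Dividing progenitors and tumour cells depend on this supply for DNA replication, and mTORC1 is known to act on it through S6 kinase, which phosphorylates CAD.

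Ribosome footprints are the mRNA fragments protected by ribosomes, so a gene's footprint count reflects mRNA amount and ribosome occupancy together. Levels are given as counts scaled to a common library total (CPM), scaled by TMM factors within each assay. Translational efficiency (TE) is the footprint level relative to the RNA level of the same gene. Library totals were 6788365 to 13300292 counts for RNA and 7692625 to 14150068 for footprints. The test was edgeR's quasi-likelihood test over all genes, with Benjamini-Hochberg adjustment, and a change was called at an adjusted p under 0.05. No spike-in was recorded, so each change is relative to the other genes of its assay. When library totals replaced the TMM factors, the median of all genes in Rapalink-1 against DMSO moved by -0.14 for RNA, 0.27 for footprints and 0.37 for TE (log2). With that scaling, TE calls over all genes split into 5563 higher and 841 lower, against 2455 higher and 2182 lower with TMM factors. Footprint calls then split into 5400 higher and 1587 lower, against 2896 and 3161, and RNA calls into 1123 higher and 3731 lower, against 2182 and 2123. In library names, footprint libraries of rapamycin carry another mark than those of Rapalink-1 and DMSO, and that mark and rapamycin cannot be told apart. Of 8 neural progenitor markers, 6 had a row, and Sox2 and Atoh1 had none under these names. The summed footprint level of the 6 was 1042 to 1083 CPM with Rapalink-1, 567 to 635 CPM with rapamycin and 513 to 576 CPM with DMSO. In RNA it was 436 to 466 CPM with Rapalink-1, 617 to 663 CPM with rapamycin and 431 to 474 CPM with DMSO. All marker levels in this paragraph are CPM of the library total, without TMM factors. Footprint TMM factors were 1.11 to 1.13 for Rapalink-1 and 0.92 to 0.94 for DMSO, so TMM scaling would narrow the progenitor footprint difference between these groups. Defining markers of oligodendrocytes, microglia and vessels (Mbp, Mog, Csf1r, Cx3cr1, Pecam1, Cdh5) had no row under these names. Of those 3 lists 1 of 6 (Cnp), 2 of 6 (Hbb-bs and Itgam) and 1 of 7 (Acta2) genes had a row. The microglia and blood markers summed to 26.04 to 29.05 footprint CPM with Rapalink-1, 58.1 to 73.2 CPM with rapamycin and 52.1 to 78.3 CPM with DMSO. Their RNA summed to 98.8 to 109 CPM with Rapalink-1, 107 to 122 CPM with rapamycin and 105 to 148 CPM with DMSO. Cnp had 14.6 to 17.8 footprint CPM with Rapalink-1, 15.1 to 16.6 CPM with rapamycin and 11.9 to 15.1 CPM with DMSO, and Acta2 had 268 to 285, 233 to 264 and 259 to 297 CPM. The part of these markers in the results was not tested.

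Rapalink-1 against DMSO. TE of Rrm2 fell by 39.3%, that of Ctps fell by 38.3% and that of Dut fell by 22.7% in cells treated with Rapalink-1, while their mRNA levels were not called different. With library totals, RNA of Ctps (-0.16, edgeR adjusted p = 0.0040) and Dut (-0.15, edgeR adjusted p = 0.0045) was called lower. Rrm1, the partner of Rrm2 in the same enzyme, moved the other way in footprints, which were 17.2% higher. In these bulk libraries, fewer cells of a kind and less mRNA or fewer ribosomes per cell cannot be told apart. Over the 9 enzymes, TE was called lower for 5 (Rrm2, Ctps, Dut, Umps and Cad) and higher for none, where 19.9% of all 10988 tested genes were lower and 22.3% higher. Footprints were called lower for 5 (Ctps, Rrm2, Dut, Dtymk and Umps) and higher for Rrm1, against 28.0% lower and 25.7% higher of all 11281 genes. RNA was called higher for 2 (Umps and Rrm1) and lower for none, against 19.4% higher and 18.8% lower of all 11271 genes. The median TE change of the 9 was -0.22 on the log2 scale, beside 0.06 over all tested genes. TE values of Rapalink-1 and DMSO replicates did not overlap for 6 of the 9, and for 49.1% of all genes. With library totals the calls among the 9 turned in part. In TE, 3 were called higher (Tyms, Dtymk and Rrm1) and 2 lower (Ctps and Rrm2). In footprints, 4 were called higher (Cad, Dhodh, Tyms and Rrm1) and 3 lower (Ctps, Rrm2 and Dut). In RNA, none was called higher and 4 were called lower (Ctps, Tyms, Dut and Dtymk).

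**Figure D1:**
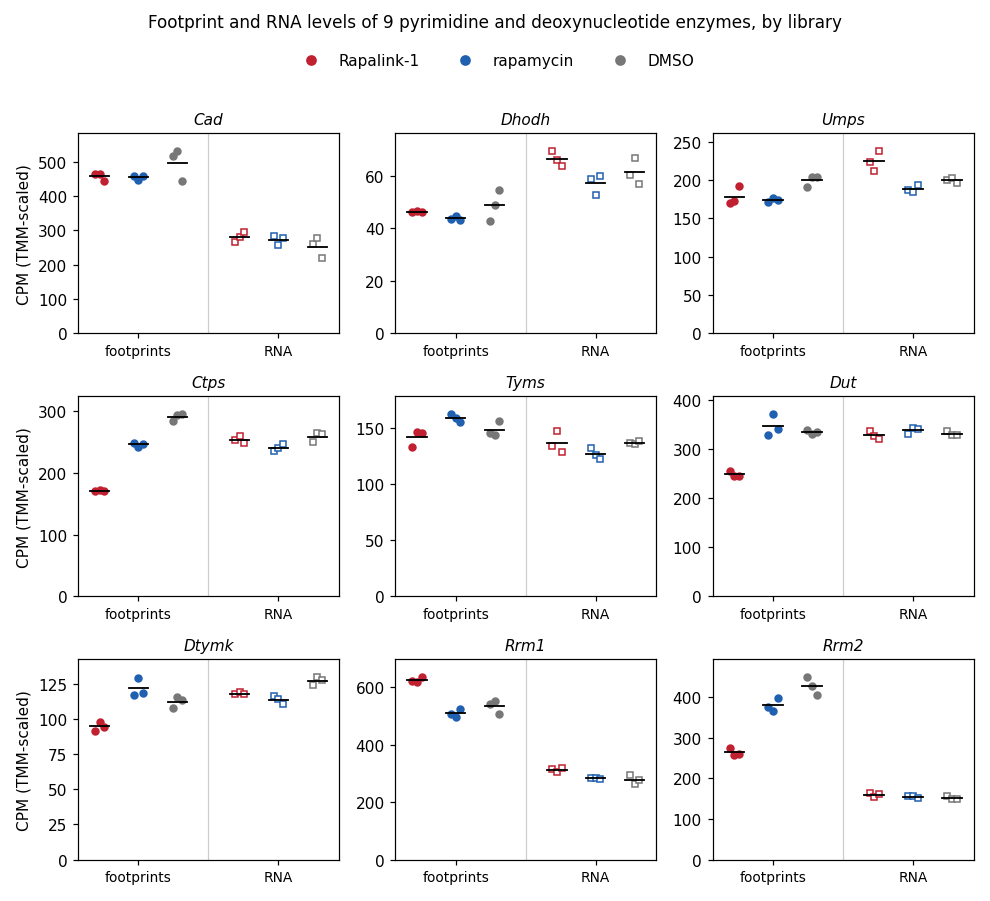
TMM-scaled CPM of the 9 enzymes in each library, footprints (filled circles) left and RNA (open squares) right in each panel, for Rapalink-1 (red), rapamycin (blue) and DMSO (grey); bars are group means (n = 3) and each vertical axis starts at 0. Footprints of Ctps, Rrm2 and Dut in the 3 Rapalink-1 libraries lie below all DMSO libraries and those of Rrm1 lie above, while RNA levels of Ctps, Dut and Rrm2 overlap between these groups.

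Ribonucleotide reductase. The enzyme joins a large subunit, RRM1, which holds the catalytic site, with a small subunit, RRM2, which carries the radical and is made mainly in S phase. Rrm2 (GRCm38, chr12:24708254-24714146) had 273, 257 and 260 footprint CPM with Rapalink-1, 376, 366 and 396 CPM with rapamycin, and 448, 427 and 406 CPM with DMSO. The 3 treatments did not overlap, and Rapalink-1 libraries were the lowest. Rrm2 RNA was 164, 154 and 160 CPM with Rapalink-1, 156, 155 and 152 CPM with rapamycin, and 157, 150 and 150 CPM with DMSO. RNA levels of the 3 treatments overlapped. Its footprints fell by 0.70 ± 0.054 (log2 fold change ± SE, edgeR adjusted p = 4.0e-14) in Rapalink-1 against DMSO. The TE change was -0.72 ± 0.073 (edgeR adjusted p = 6.8e-12), and 7.46% of all genes had a lower value. It passed the test in all 15 alternatives run, from -0.75 to -0.35. RNA differed by 0.06 ± 0.052, with an approximate 95% interval of -0.04 to 0.17.

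Rrm1 (chr7:102441695-102469771) had 620, 618 and 634 footprint CPM with Rapalink-1, 507, 494 and 523 CPM with rapamycin, and 540, 553 and 505 CPM with DMSO. All 3 Rapalink-1 libraries lay above the other 6. Its footprints rose by 0.23 ± 0.051 (log2, edgeR adjusted p = 2.1e-04) in Rapalink-1 against DMSO, a call kept in all 14 alternatives. Rrm1 RNA was 315, 303 and 319 CPM with Rapalink-1, 285, 285 and 280 CPM with rapamycin, and 292, 264 and 278 CPM with DMSO. Its RNA rose by 0.17 ± 0.047 (edgeR adjusted p = 0.0037), but with library totals the RNA difference was 0.03 and not called. TE of Rrm1 differed by 0.10 ± 0.069 (edgeR adjusted p = 0.23) with TMM factors and by 0.47 with library totals, where it passed the test.

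The balance of the subunit messages can be read within each library, where no scaling enters. The log2 ratio of Rrm2 to Rrm1 footprint counts was -1.18, -1.27 and -1.29 with Rapalink-1, -0.43, -0.43 and -0.40 with rapamycin, and -0.27, -0.37 and -0.32 with DMSO. Rapalink-1 libraries stood far below the other 6, and rapamycin libraries just below DMSO libraries. The ratio with Rapalink-1 was 0.526 times that with DMSO, a log2 difference of -0.93 ± 0.044 (SE). In RNA the same ratio was -0.95, -0.98 and -0.99 with Rapalink-1, -0.87, -0.87 and -0.88 with rapamycin, and -0.90, -0.82 and -0.89 with DMSO. The RNA difference of Rapalink-1 against DMSO was -0.10 ± 0.028. Both differences had an exact two-sided permutation p of 0.1, the smallest that 20 arrangements of 3 against 3 libraries allow, so the test cannot reach 0.05. Rapamycin against DMSO differed by -0.10 ± 0.032 in footprints (exact permutation p = 0.1) and by -0.0043 ± 0.025 in RNA (exact permutation p = 1).

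**Figure D2:**
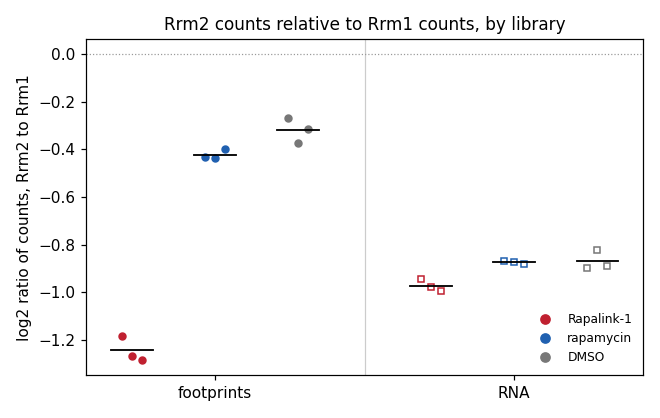
Log2 ratio of Rrm2 counts to Rrm1 counts in each library, footprints (filled circles) left and RNA (open squares) right, by treatment; bars are group means (n = 3). In footprints the Rapalink-1 libraries lie between -1.29 and -1.18 and the DMSO libraries between -0.37 and -0.27; in RNA all 9 libraries lie between -0.99 and -0.82.

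Rrm2b encodes an alternative small subunit, induced by p53, that serves DNA repair and mitochondrial DNA supply. Its footprints per RNA were 1.41, 1.32 and 1.34 with Rapalink-1, 1.11, 1.37 and 1.17 with rapamycin, and 0.974, 1.24 and 1.01 with DMSO. Rapalink-1 replicates were all above DMSO replicates. The TE difference was 0.40 ± 0.18 (edgeR adjusted p = 0.069), which missed the threshold. It passed with library totals (0.77) and without DMSO replicate 2 (0.50, edgeR adjusted p = 0.042). Its footprint level was low, 18.1 to 20.3 CPM with Rapalink-1 and 15.1 to 18.1 CPM with DMSO.

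CTP synthesis. CTP synthase aminates UTP to CTP, and mice have 2 genes for it, Ctps and Ctps2. Ctps (chr4:120539868-120570276) had 171, 172 and 170 footprint CPM with Rapalink-1, 249, 242 and 247 CPM with rapamycin, and 284, 293 and 295 CPM with DMSO. The 3 treatments formed separate steps with no overlap. Ctps RNA was 253, 259 and 249 CPM with Rapalink-1, 235, 240 and 247 CPM with rapamycin, and 249, 265 and 263 CPM with DMSO, with Rapalink-1 and DMSO overlapping. Footprints fell by 0.77 ± 0.053 (log2, edgeR adjusted p = 1.3e-15) and TE fell by 0.70 ± 0.070 (edgeR adjusted p = 4.1e-12) in Rapalink-1 against DMSO. TE passed in all 15 alternatives, from -0.72 to -0.33.

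Ctps2, the second CTP synthase, moved in the opposite direction. It had 90.4, 94.3 and 97.0 footprint CPM with Rapalink-1, 73.6, 62.9 and 74.4 CPM with rapamycin, and 76.4, 62.7 and 64.5 CPM with DMSO. All Rapalink-1 libraries lay above the other 6. Its RNA was 94.4 to 97.2 CPM with Rapalink-1 and 96.5 to 105 CPM with DMSO. Footprints of Ctps2 rose by 0.46 ± 0.076 (log2, edgeR adjusted p = 2.9e-06) and TE rose by 0.57 ± 0.097 (edgeR adjusted p = 3.6e-06) in Rapalink-1 against DMSO. The TE call held in all 15 alternatives, from 0.53 to 0.93. Footprints per RNA were 0.676, 0.662 and 0.683 for Ctps and 0.945, 0.998 and 0.999 for Ctps2 with Rapalink-1. With DMSO they were 1.14, 1.11 and 1.12 for Ctps and 0.726, 0.649 and 0.650 for Ctps2, so the order of the synthases in TE was opposite in the treatments. The difference between their changes was not tested as such.

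**Figure D3:**
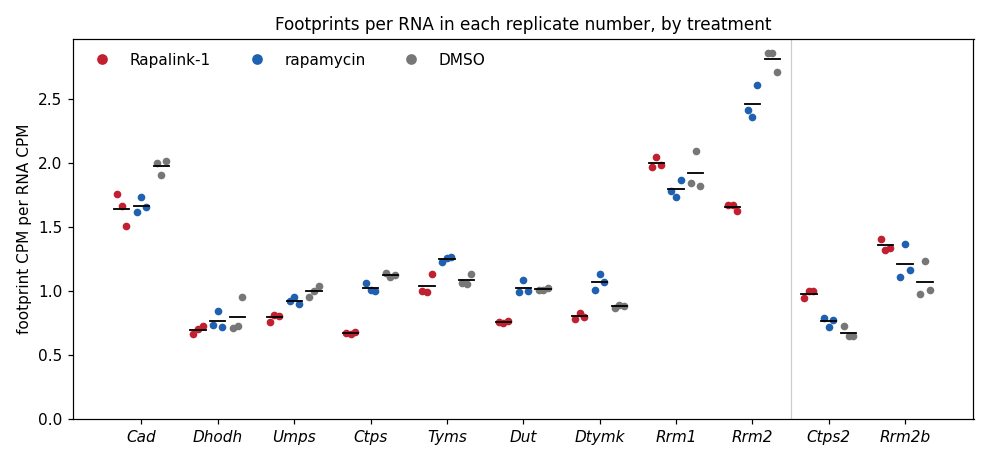
Footprint CPM per RNA CPM of the same gene and replicate number for the 9 enzymes and, right of the line, Ctps2 and Rrm2b, with Rapalink-1 (red), rapamycin (blue) and DMSO (grey); bars are group means (n = 3) and the axis starts at 0. Rrm2 lies at 1.62 to 1.67 with Rapalink-1 and 2.71 to 2.85 with DMSO, and Ctps and Ctps2 change places between Rapalink-1 and DMSO.

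Because mRNAs with a terminal oligopyrimidine tract, a C followed by pyrimidines right at the cap, are known targets of mTORC1 in translation, the start sites of the 4 enzymes with the lowest TE change (Rrm2, Ctps, Dut and Umps) are shown beside Rrm1, which did not fall, and Eef2, an elongation factor mRNA known to carry the tract. Each window is the sense strand (RefSeq, GRCm38.p6) from 10 bases before the annotated start to 20 bases after it, that is, the start is letter 11. Capitals mark runs of a C followed by at least 4 C or T, searched on the sense strand only.
Rrm2, chr12:24708244-24708273, plus strand: tgggtggCTCTTTaaagggcgcgggcgctg
Ctps, chr4:120570257-120570286, minus strand: cgtgcgcaccgcctagagcccgCCTCTCag
Dut, chr2:125247505-125247534, plus strand: gagggagccctggtctgagcaggtaacggt
Umps, chr16:33967019-33967048, minus strand: cgggaCTTCTgggtgacgtcacgggcccca
Rrm1, chr7:102441685-102441714, plus strand: ttgcccacactcaatatggcggccaaggga
Eef2, chr10:81176621-81176650, plus strand: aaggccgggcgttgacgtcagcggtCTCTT
Rrm2, Ctps and Umps held such a run within the window, and those of Dut, Rrm1, Tyms, Dtymk and Cad held none. The run of Rrm2 spanned the annotated start, that of Umps ended before it and that of Ctps began after it. No run of an enzyme, nor that of Eef2, began at the annotated start. Of the 9 enzymes, 8 matched an entry, with 9 windows since Ctps had 2 starts. Both Ctps windows held a run after the start, and the one printed is the upstream start. Of all 32851 windows of genes, 35.8% held a run and 2.51% held one exactly at the start. Among the 9734 windows of genes tested for TE, the shares were 36.2% and 2.34%. Annotated starts may differ from those used in these cells, and a run here is a description of letters.

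The route to UMP. CAD carries out the first 3 steps, DHODH oxidises dihydroorotate in mitochondria, and UMPS makes UMP from orotate. Umps (chr16:33954782-33967038) had 170, 172 and 192 footprint CPM with Rapalink-1, 172, 176 and 174 CPM with rapamycin, and 191, 203 and 203 CPM with DMSO. Rapalink-1 and DMSO overlapped slightly, while its RNA was higher with Rapalink-1 (224, 212 and 238 CPM) than with DMSO (200, 203 and 195 CPM). Umps RNA rose by 0.17 ± 0.050 (log2, edgeR adjusted p = 0.0064), a call lost without Rapalink-1 replicate 3 (0.13, edgeR adjusted p = 0.075) and with library totals (0.03). TE of Umps fell by 0.29 ± 0.077 (edgeR adjusted p = 0.0020) with TMM factors but differed by 0.08 (not called) with library totals. Its footprints fell by 0.16 ± 0.057 (edgeR adjusted p = 0.018) but differed by 0.11 with library totals, and the call was lost without DMSO replicate 2 (edgeR adjusted p = 0.054) or Rapalink-1 replicate 1 (0.11) or 2 (0.084).

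Cad (chr5:31054620-31078479) had 465, 465 and 444 footprint CPM with Rapalink-1, 459, 445 and 457 CPM with rapamycin, and 516, 531 and 442 CPM with DMSO. DMSO replicate 3 was as low as the treated libraries, so the groups overlapped. Its RNA was 265, 280 and 294 CPM with Rapalink-1, 284, 257 and 277 CPM with rapamycin, and 259, 278 and 220 CPM with DMSO. Footprints per RNA did not overlap, at 1.75, 1.66 and 1.51 with Rapalink-1 and 2.00, 1.91 and 2.01 with DMSO. TE of Cad fell by 0.22 ± 0.090 (edgeR adjusted p = 0.047) but differed by 0.15 with library totals. The call was also lost with DESeq2 size factors (edgeR adjusted p = 0.050), with DESeq2's Wald test (adjusted p = 0.065), with only the 2 treatments compared (edgeR adjusted p = 0.056), and without DMSO replicate 1 (edgeR adjusted p = 0.13), Rapalink-1 replicate 2 (0.084) or Rapalink-1 replicate 3 (0.22). Without DMSO replicate 3 Cad footprints passed the test (-0.20, edgeR adjusted p = 0.0014), against -0.12 with all replicates (edgeR adjusted p = 0.078). They also passed with no count filter (-0.13) and with unmerged rows (-0.14), and with library totals they passed in the other direction (0.16, edgeR adjusted p = 0.020). Cad RNA differed by 0.14 ± 0.065 (edgeR adjusted p = 0.088) and passed with no count filter (edgeR adjusted p = 0.019) and without DMSO replicate 2 (0.22, edgeR adjusted p = 0.0011) or Rapalink-1 replicate 1 (0.18, 0.047).

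Dhodh (chr8:109593244-109608699) had the lowest counts of the 9. It had 46.5, 46.8 and 46.2 footprint CPM with Rapalink-1, 43.5, 44.8 and 43.2 CPM with rapamycin, and 43.0, 48.8 and 54.6 CPM with DMSO. Its RNA was 69.5, 66.2 and 63.8 CPM with Rapalink-1, 59.0, 52.9 and 60.1 CPM with rapamycin, and 60.3, 66.7 and 57.2 CPM with DMSO. Rapalink-1 and DMSO overlapped in both assays, while Rapalink-1 libraries lay above rapamycin libraries in both. The footprint difference between the drugs was 0.08 ± 0.082 (log2, edgeR adjusted p = 0.40) and was not called. The TE difference of -0.13 ± 0.11 in Rapalink-1 against DMSO was not called (edgeR adjusted p = 0.36), with an interval of -0.35 to 0.09.

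The thymidylate branch. DUT hydrolyses dUTP to dUMP and keeps uracil out of DNA, TYMS methylates dUMP to dTMP, and DTYMK phosphorylates dTMP. Dut (chr2:125247248-125259049) had 256, 245 and 245 footprint CPM with Rapalink-1, 328, 370 and 341 CPM with rapamycin, and 338, 331 and 335 CPM with DMSO. The Rapalink-1 libraries stood below all others. Dut RNA was 335, 325 and 321 CPM with Rapalink-1 and 336, 328 and 327 CPM with DMSO, which overlapped. Footprints of Dut fell by 0.43 ± 0.054 (log2, edgeR adjusted p = 1.2e-08), and by 0.16 with library totals, where the call held. TE of Dut fell by 0.37 ± 0.070 (edgeR adjusted p = 1.8e-05) but was near 0 with library totals (-0.0031, edgeR adjusted p = 0.97), the 1 alternative of 15 that ended the call.

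Dtymk (chr1:93792576-93802068) had 91.8, 98.2 and 94.1 footprint CPM with Rapalink-1, 117, 129 and 119 CPM with rapamycin, and 108, 116 and 113 CPM with DMSO. The 3 treatments did not overlap, with rapamycin highest. Its RNA was 118, 119 and 118 CPM with Rapalink-1, 116, 115 and 111 CPM with rapamycin, and 124, 130 and 128 CPM with DMSO. Footprints fell by 0.25 ± 0.063 in Rapalink-1 against DMSO (edgeR adjusted p = 0.0012) but differed by 0.03 with library totals. TE of Dtymk differed by -0.10 ± 0.083 (edgeR adjusted p = 0.38), and by 0.27 with library totals, past the test on the other side.

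Tyms (chr5:30038546-30073645) had 134, 146 and 146 footprint CPM with Rapalink-1, 163, 160 and 155 CPM with rapamycin, and 146, 144 and 156 CPM with DMSO. Its RNA was 134, 147 and 129 CPM with Rapalink-1, 132, 127 and 123 CPM with rapamycin, and 137, 136 and 139 CPM with DMSO. Rapalink-1 and DMSO overlapped in both assays. The TE difference was -0.02 ± 0.082 (edgeR adjusted p = 0.87), with an interval of -0.18 to 0.14, while library totals gave 0.35, past the test. A processed copy, Tyms-ps, exists in the mouse genome, and how reads shared with it were assigned is not given in the sources used here.

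**Figure D4:**
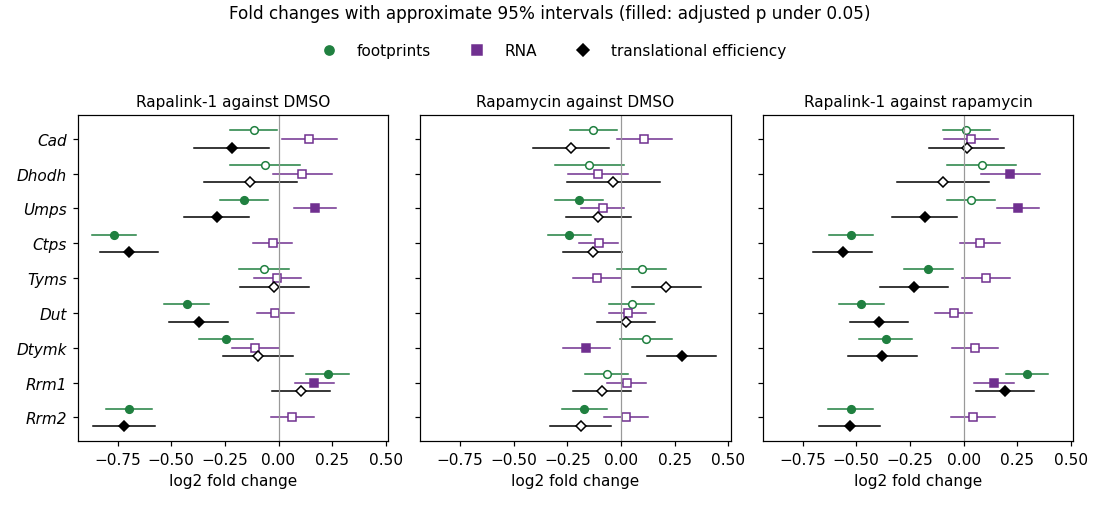
Log2 fold changes of the 9 enzymes with approximate 95% intervals (1.96 SE) for footprints (green circles), RNA (purple squares) and TE (black diamonds) in the 3 comparisons; filled symbols passed an adjusted p of 0.05. With Rapalink-1 against DMSO, Ctps and Rrm2 lie near -0.7 in footprints and TE; with library totals in place of TMM factors the TE values of Cad, Dhodh, Umps, Tyms and Dtymk change sign.

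**Figure D5:**
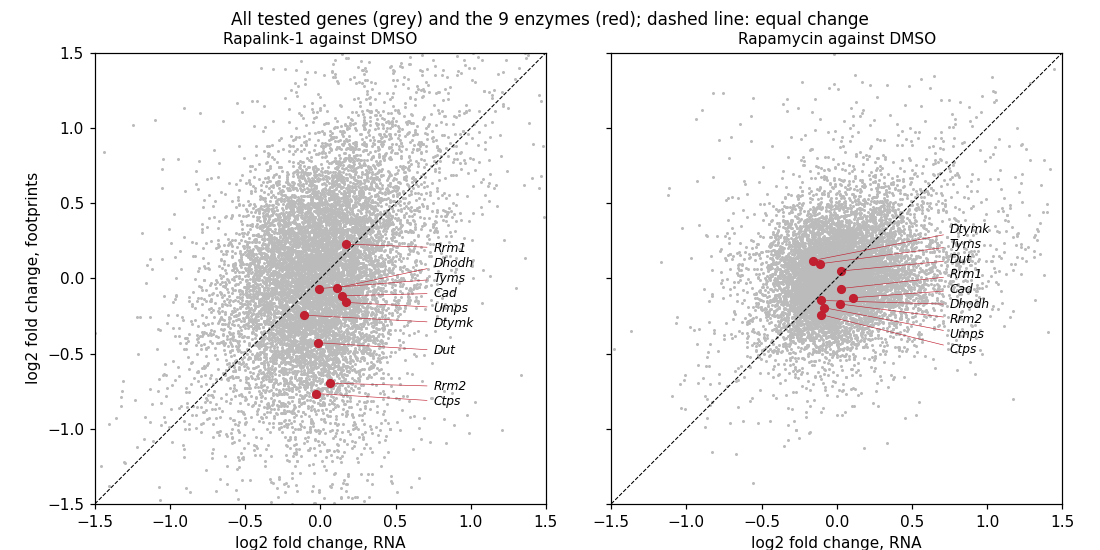
Log2 fold change of footprints (vertical) against that of RNA (horizontal) for 10988 genes (grey) and the 9 enzymes (red), Rapalink-1 against DMSO left and rapamycin against DMSO right; both use the same DMSO libraries, and 295 genes left and 42 right lie outside the axes. Ctps, Rrm2 and Dut lie below the dashed line of equal change with Rapalink-1, and all 9 lie near the centre with rapamycin.

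Rapamycin against DMSO. With rapamycin 3 of the enzymes passed the test in footprints, 1 in TE and 1 in RNA, and the largest difference was 0.28 on the log2 scale, in TE of Dtymk. Footprints were called lower for 3 (Ctps, Umps and Rrm2) and higher for none, against 9.4% lower and 8.75% higher of all genes. TE was called higher for Dtymk and lower for none, against 6.52% higher and 9.85% lower of all genes. TE values of rapamycin and DMSO replicates did not overlap for 6 of the 9, and for 31.1% of all genes. RNA was called lower for Dtymk and higher for none, against 10.5% lower and 13.6% higher of all genes. With library totals the footprint calls over all genes split into 1391 higher and 654 lower, against 987 and 1060 with TMM factors, and TE calls into 930 and 846, against 716 and 1082.

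Ctps footprints fell by 0.24 ± 0.052 (log2, edgeR adjusted p = 7.2e-04) in rapamycin against DMSO, with no overlap between the groups. Ctps RNA differed by -0.10 ± 0.047 without a call (edgeR adjusted p = 0.10), and these groups did not overlap either. Rrm2 footprints fell by 0.17 ± 0.053 (edgeR adjusted p = 0.020). That call was lost with library totals (-0.12) and without DMSO replicate 1 (-0.13, edgeR adjusted p = 0.12), DMSO replicate 2 (0.052), rapamycin replicate 1 (0.076) or rapamycin replicate 2 (0.089). Umps footprints fell by 0.20 ± 0.057 (edgeR adjusted p = 0.013), and the call was lost with library totals (-0.14) and without DMSO replicate 2 (0.053) or rapamycin replicate 1 (0.057). TE of these 3 differed by -0.13, -0.19 and -0.11, none called.

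For Dtymk the assays differed in direction with rapamycin, but the footprint difference of 0.12 ± 0.062 was not called (log2, edgeR adjusted p = 0.20). TE of Dtymk was 1.01, 1.13 and 1.07 footprint CPM per RNA CPM with rapamycin and 0.869, 0.894 and 0.885 with DMSO. TE rose by 0.28 ± 0.082 (log2, edgeR adjusted p = 0.012), a call lost without rapamycin replicate 2 (0.25, edgeR adjusted p = 0.066). RNA of Dtymk fell by 0.16 ± 0.056 (edgeR adjusted p = 0.028), lost without rapamycin replicate 2 (edgeR adjusted p = 0.062) or 3 (0.12). Tyms TE was 1.23, 1.26 and 1.27 with rapamycin and 1.07, 1.05 and 1.13 with DMSO. These did not overlap, but the difference of 0.21 ± 0.082 was not called (edgeR adjusted p = 0.071). It passed with library totals (0.25) and without DMSO replicate 3 (0.24, edgeR adjusted p = 0.046). TE of Cad was 1.62, 1.73 and 1.65 with rapamycin, and the difference from DMSO of -0.23 ± 0.090 was not called either (edgeR adjusted p = 0.072). It passed with a replicate block by dish, which joins the RNA and footprint libraries of a treatment and number (-0.24, edgeR adjusted p = 0.012), and with no count filter (0.034). It also passed without DMSO replicate 2 (edgeR adjusted p = 0.038) or 3 (0.023), and Rrm2 TE passed without DMSO replicate 3 (-0.22, edgeR adjusted p = 0.034). In the authors' deposited table of TE, Dtymk had a log2 fold change of 0.28 (adjusted p 0.0022), Tyms 0.21 (0.041) and Rrm2 -0.19 (0.033) in rapamycin against DMSO. In the authors' deposited table for Rapalink-1 against DMSO, TE of Rrm2 was -0.73, Ctps -0.70, Dut -0.38, Umps -0.29 and Cad -0.23. In their deposited RNA values, unlike here, Ctps passed 0.05 with rapamycin (-0.11, adjusted p 0.038). So did Dtymk with Rapalink-1 (-0.14, adjusted p 0.026), each against DMSO.

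Rapalink-1 against rapamycin. The drugs differed most for Ctps, Rrm2, Dut and Dtymk, all with lower TE in Rapalink-1. TE was called lower for 6 (also Tyms and Umps) and higher for Rrm1, against 23.9% lower and 26.1% higher of all genes. Footprints were called lower for 5 (Ctps, Rrm2, Dut, Dtymk and Tyms) and higher for Rrm1, against 27.6% lower and 25.4% higher. RNA was called higher for 3 (Umps, Dhodh and Rrm1) and lower for none, against 19.6% higher and 21.5% lower of all genes. TE values of the 2 drugs did not overlap for 7 of the 9, and for 56.8% of all genes. With library totals the calls over all genes split into 5179 higher and 1196 lower in TE, against 2873 and 2631. In footprints they split into 4979 and 1830, against 2870 and 3119, and in RNA into 1056 and 3963, against 2213 and 2422. With library totals, TE calls of the 9 were 2 lower (Ctps -0.24, Rrm2 -0.21) and 2 higher (Rrm1 0.52, Cad 0.34). Footprint calls were then 3 lower (Ctps, Rrm2 and Dut) and 4 higher (Cad, Dhodh, Umps and Rrm1), and in RNA Dut was called lower (-0.19) and none higher.

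TE of Ctps fell by 0.56 ± 0.070 (log2, edgeR adjusted p = 1.2e-09) in Rapalink-1 against rapamycin. Rrm2 TE fell by 0.53 ± 0.073 (edgeR adjusted p = 1.9e-08). TE of Dut fell by 0.39 ± 0.070 (edgeR adjusted p = 4.1e-06), at 0.762, 0.753 and 0.765 with Rapalink-1 and 0.993, 1.08 and 1.00 with rapamycin. Dtymk TE fell by 0.38 ± 0.083 (edgeR adjusted p = 1.3e-04), at 0.781, 0.825 and 0.801 with Rapalink-1. With library totals Dut and Dtymk were no longer called (-0.07 and -0.05).

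Tyms TE fell by 0.23 ± 0.082 (edgeR adjusted p = 0.016) but differed by 0.09 with library totals, and the call was also lost without Rapalink-1 replicate 1 (edgeR adjusted p = 0.070) or 2 (0.074) or rapamycin replicate 3 (0.057). Its footprints fell by 0.16 ± 0.058 but differed by 0.06 with library totals, a call lost without Rapalink-1 replicate 1 (edgeR adjusted p = 0.13) or rapamycin replicate 1 (0.063). Umps TE fell by 0.18 ± 0.077 (edgeR adjusted p = 0.045) but differed by 0.14 with library totals, and the call ended with no count filter (edgeR adjusted p = 0.057) and without any of the 6 replicates (0.053 to 0.16). Rrm1 TE rose by 0.19 ± 0.069 (edgeR adjusted p = 0.016), a call lost without Rapalink-1 replicate 2 (edgeR adjusted p = 0.074) or rapamycin replicate 1 (0.057) or 2 (0.083). Its footprints rose by 0.30 ± 0.050 (edgeR adjusted p = 4.6e-06).

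Umps RNA rose by 0.25 ± 0.050 (edgeR adjusted p = 5.6e-05) and was not called with library totals (0.11). Dhodh RNA rose by 0.22 ± 0.070 (edgeR adjusted p = 0.011), a call lost with library totals (0.08) and without Rapalink-1 replicate 1 (edgeR adjusted p = 0.070) or rapamycin replicate 2 (0.11). Rrm1 RNA rose by 0.14 ± 0.047 (edgeR adjusted p = 0.012) but was -0.00074 with library totals, a call lost without Rapalink-1 replicate 1 (0.052) or 3 (0.055) or rapamycin replicate 3 (0.055). For Cad and Dhodh the TE difference between the drugs was not called, with intervals of -0.16 to 0.19 and -0.31 to 0.12.

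Levels without drug. In DMSO the enzymes differed in footprints per RNA. The tools of counting are not stated, so how far gene length cancels in this ratio between genes is not known. Rrm2 stood first at 2.81 ± 0.085 footprint CPM per RNA CPM (SD, n = 3), above 92.3% of all tested genes, whose median was 1.01. Cad at 1.97 ± 0.056 and Rrm1 at 1.92 ± 0.15 followed and did not differ beyond their spread. Ctps at 1.12 ± 0.016, Tyms at 1.08 ± 0.040, Dut at 1.01 ± 0.010 and Umps at 1.00 ± 0.042 lay near the median, with each neighbour within the spread except Tyms above Dut. Dtymk at 0.883 ± 0.013 and Dhodh at 0.800 ± 0.13 were the lowest and overlapped. With Rapalink-1 the ratio of Rrm2 was 1.67, 1.67 and 1.62, below that of Rrm1 at 1.97, 2.04 and 1.98. The 9 enzymes together held, before any scaling, 0.250%, 0.247% and 0.251% of footprint counts with Rapalink-1, 0.233%, 0.231% and 0.238% with rapamycin, and 0.245%, 0.245% and 0.231% with DMSO. The summed footprint share in each Rapalink-1 library lay above that in each DMSO library, although 5 of the 9 were called lower in TMM-scaled footprints. In RNA the share was 0.175%, 0.176% and 0.177% with Rapalink-1, 0.185%, 0.182% and 0.184% with rapamycin, and 0.188%, 0.186% and 0.182% with DMSO. There each Rapalink-1 library lay below each DMSO library.

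Other nucleotide genes in Rapalink-1 against DMSO. Of 17 genes of pyrimidine salvage and interconversion, 15 were tested, and TE was called higher for 4 and lower for 5, with a median of -0.10 beside 0.06 over all genes (9 higher and 2 lower with library totals). TE was called higher for 22.3% and lower for 19.9% of all genes. Nme2 and Nme1 encode nucleoside diphosphate kinases, which make nucleoside triphosphates. Nme2 had 340, 342 and 377 footprint CPM with Rapalink-1 and 874, 973 and 1070 CPM with DMSO, while its RNA was 1149, 1108 and 1073 CPM with Rapalink-1 and 1002, 1026 and 999 CPM with DMSO. Footprint groups were far apart, and TE of Nme2 fell by 1.56 ± 0.075 (log2, edgeR adjusted p = 2.9e-24). TE of Nme1 fell by 0.56 ± 0.070 (edgeR adjusted p = 2.4e-09). Both calls held in all 15 alternatives, but these genes are close paralogs and how reads shared between them were assigned is not given in the sources used here. Cmpk1, the kinase of UMP and CMP, had lower RNA (-0.63 ± 0.071, edgeR adjusted p = 9.4e-10) and higher TE (0.44 ± 0.099, edgeR adjusted p = 2.6e-04). In rapamycin against DMSO, TE was called lower for 1 of the 15 and higher for none, and TE of Ctps2 differed by 0.17 (not called).

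Of 14 genes of nucleotide breakdown and control, 8 were tested, and TE was called lower for 1 and higher for none (3 higher and none lower with library totals). That gene was Samhd1, a dNTP hydrolase (-0.27 ± 0.11, edgeR adjusted p = 0.039), which differed by 0.10 with library totals and lost its call without any of 5 replicates (edgeR adjusted p of 0.054 to 0.16), DMSO replicate 3 being the exception. The replicate block by dish ended that call too (-0.26, edgeR adjusted p = 0.050). Dctpp1, which hydrolyses dCTP, and Nt5c, a nucleotidase, differed by -0.20 and -0.24 in TE without a call. In the folate cycle that feeds TYMS, TE was called higher for Shmt1 (0.44 ± 0.078, edgeR adjusted p = 7.2e-06) and lower for Mthfd1 (-0.29 ± 0.073, edgeR adjusted p = 0.0012, but 0.08 with library totals). TE of Shmt2 differed by -0.05, which was not called, and by 0.32 with library totals, past the test (edgeR adjusted p = 1.2e-04).

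For comparison, TE of de novo purine genes was called lower for 8 of 13 and higher for 1, with a median of -0.39 (4 lower and 4 higher with library totals). Of all genes, 19.9% were called lower and 22.3% higher in TE. Impdh2, which commits IMP to guanine nucleotides, fell by 1.12 ± 0.064 (edgeR adjusted p = 1.0e-21). Adsl fell by 0.72 ± 0.073, Atic by 0.56 ± 0.076 and Paics by 0.54 ± 0.065, all 3 enzymes of the purine ring route. These 4 passed in all 15 alternatives. RNA of the purine list was called higher for 7 of 13 and lower for none, with a median of 0.24. Of all genes, 19.4% were called higher and 18.8% lower in RNA. With library totals the all-gene RNA median moved by -0.14, and RNA calls over all genes split into 1123 higher and 3731 lower. The RNA counts of the purine and MCM lists are those with TMM factors. Of the 6 MCM helicase subunits, which open DNA at replication origins, RNA was called higher for all 6 (median 0.36) and TE lower for 4 and higher for 1. TE of Mcm7, Mcm2, Mcm5 and Mcm6 differed by -0.35, -0.34, -0.29 and -0.25 with TMM factors and by 0.02, 0.03, 0.08 and 0.12 with library totals. In rapamycin against DMSO, TE of both lists had no call in edgeR.

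Genes of like pattern were sought over the 6 group means of log2 CPM (3 treatments in RNA and in footprints, centred within each assay) among 6265 genes. The nearest to Rrm2 were Eif2s3x, Fbxo21 and Snrpa1, with root mean square differences of 0.021, 0.025 and 0.028. Their TE changes in Rapalink-1 against DMSO were -0.77, -0.81 and -0.63. The nearest to Cad were Slc4a2, Ide and Appl1, at 0.0077, 0.010 and 0.013, with TE changes of -0.19, -0.23 and -0.31. These genes were picked on the same RNA and footprint levels that give TE. Their likeness in TE change therefore follows from the selection.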

How the data were processed

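Counts per transcript row were deposited by the authors for 18 libraries, made from lysates of which an aliquot was kept for total RNA, with the ARTseq kit per the labels' protocols. The genome build is GRCm38 (mm10) per the submitters' processing notes and the tools of alignment and counting are not stated there. The authors also deposited tables of log2 fold changes and adjusted p-values, quoted only where named. No count column was left unused. Of 27382 rows, 6378 were 0 throughout. Rows with equal counts (8528 rows) or of the same Ensembl gene were merged by keeping the row with most reads. This gave 15307 genes, of which 9787 had a symbol. Tests used edgeR 4.0.16 (glmQLFit, robust, with glmQLFTest) in R 4.3.3, TMM factors and filterByExpr (minimum count 10, total 15). RNA (11271 genes) and footprints (11281) were fitted separately over the 3 treatments. TE was the interaction of assay and treatment over 18 libraries, on the 10988 genes that passed the filter in both assays. SE was derived from the F statistic, and intervals are 1.96 SE. The ratio of Rrm2 to Rrm1 was tested with the exact two-sided permutation test. The pipeline was also run on simulated counts with as many raised as lowered genes, which cannot probe a scaling shift between treatments.

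All 9 enzymes are named; of each other list, the 4 genes with the smallest TE p in Rapalink-1 against DMSO (some items are not reported here), and the 3 genes most like Rrm2 and Cad with a mean log2 CPM of at least 4. Members and lists were chosen with earlier results of these data known. Deviations of same-numbered samples did not correlate above 0.1 in every pair, so the main fits have no block. Start-site sequences and coordinates come from RefSeq (GRCm38.p6). Alternatives were DESeq2 size factors, library totals, TMM without ribosomal protein, elongation factor and mitochondrial genes, no filter, DESeq2 1.42.0, only the 2 treatments compared, replicate blocks, unmerged rows and each replicate left out.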

Additional observations from a re-analysis of the deposited data

How the results depend on the processing

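Over 81 comparisons of an enzyme, 1161 values under alternatives were computed: 1043 kept their direction and side of the threshold, 25 passed only there, 49 lost the call and 44 changed direction. TE of Ctps and Rrm2 in Rapalink-1 against DMSO kept the call under all 15 alternatives. Causes were not tested beyond the shift of the all-gene median that library totals bring. With library totals, RNA of Rapalink-1 against DMSO had 4 called enzymes, all lower, in place of 2, both higher, and RNA of Rapalink-1 against rapamycin had 1, lower, in place of 3, all higher. TE of Rapalink-1 against rapamycin had 4 (2 higher, 2 lower) in place of 7, footprints of rapamycin against DMSO 1 in place of 3, and TE of rapamycin against DMSO 2 in place of 1. That last count was also 2 with no count filter and with a replicate block by dish, where Cad was added. Of all genes, 1766 were called with no count filter and 1825 with that block. The all-gene counts with library totals are given with each comparison above.

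The replicate block changed no call of an enzyme, with 5 called in TE and 6 in footprints of Rapalink-1 against DMSO and 1 in TE of rapamycin against DMSO. Correlations of same-numbered deviations between treatments were -0.18 to 0.047 in RNA and -0.19 to 0.23 in footprints. Between RNA and footprints of the same treatment and number they were 0.16, 0.17 and 0.15 with DMSO, but -0.074 to 0.034 with the drugs. The replicate block by dish, which joins those libraries, moved the calls of Cad (rapamycin against DMSO) and Samhd1 in TE.

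Leaving out 1 replicate at a time gave 1 to 3 called enzymes in RNA, 5 to 7 in footprints and 4 to 5 in TE for Rapalink-1 against DMSO. For rapamycin against DMSO it gave 0 to 2, 1 to 4 and 0 to 4, and for Rapalink-1 against rapamycin 1 to 3, 5 to 6 and 4 to 6. In TE of rapamycin against DMSO the count over all genes moved as well. Without DMSO replicate 3 it was 1924, with 4 enzymes, and without rapamycin replicate 2 it was 1300, with 0 enzymes. The ratio of Rrm2 to Rrm1 in RNA of rapamycin against DMSO ranged from -0.018 to 0.020. Signs turned for enzymes near 0, in these log2 ranges. For Rapalink-1 against DMSO they were RNA of Tyms -0.063 to 0.035, footprints of Dhodh -0.16 to 0.027, TE of Dhodh -0.21 to 0.0010 and TE of Tyms -0.082 to 0.012. For rapamycin against DMSO they were RNA of Rrm1 -0.018 to 0.064, footprints of Dut -0.0017 to 0.087, TE of Dhodh -0.11 to 0.098 and TE of Dut -0.014 to 0.042. For Rapalink-1 against rapamycin they were RNA of Cad -0.0050 to 0.074, footprints of Cad -0.0032 to 0.032 and of Umps -0.023 to 0.067, and TE of Cad -0.039 to 0.076.

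Library totals turned the sign, for Rapalink-1 against DMSO, of RNA of Dhodh (-0.027) and Rrm2 (-0.072), footprints of Cad (0.16), Dhodh (0.21), Umps (0.11), Tyms (0.21) and Dtymk (0.027), and TE of Cad (0.15), Dhodh (0.24), Umps (0.081), Tyms (0.35), Dtymk (0.27), Dctpp1 (0.17), Nt5c (0.13), Samhd1 (0.10), Mthfd1 (0.082), Shmt2 (0.32), Mcm2 (0.033), Mcm5 (0.075), Mcm6 (0.12) and Mcm7 (0.020). For Rapalink-1 against rapamycin they turned RNA of Cad (-0.11), Ctps (-0.065), Tyms (-0.038), Dtymk (-0.089), Rrm1 (-0.00074) and Rrm2 (-0.099), footprints of Tyms (0.057), and TE of Dhodh (0.23), Umps (0.14) and Tyms (0.095). For rapamycin against DMSO they turned TE of Dhodh (0.0071). With unmerged rows, RNA of Tyms was 0.00097 in Rapalink-1 against DMSO, and footprints and TE of Cad were -0.0036 and -0.0048 in Rapalink-1 against rapamycin.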
